A study of Equus caballus with 40 samples.

Results

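Equine chondrocyte pellets kept under interleukin-1β (IL-1β) without serum were compared between harvests at 48 h and at 2 h. The comparison used 8 of the 40 arrays of the series, 4 per time, chosen by their titles, and all 30559 probe sets. The cells were isolated from equine cartilage and cultured as three-dimensional pellets, in which chondrocytes lay down their own matrix. Before treatment, the pellets of both times had received recombinant equine IL-1β at 5 ng/ml for 48 h, and they then stayed in the IL-1β group for 2 h or 48 h more. The 2 h pellets were therefore not newly exposed to the cytokine, and the comparison asks how gene expression moves as exposure is prolonged. Control and serum pellets served for reference, and no array was shared with them. Control pellets never received IL-1β (8 arrays). Serum pellets received IL-1β with autologous equine serum (AES), with a treatment labelled AES24h or with autologous conditioned serum (ACS), each harvested at 2 h and 48 h (24 arrays). The labels do not explain AES24h, and they state neither the animals behind the pellets nor whether IL-1β was renewed. One pellet per group was homogenised, and whether the 4 replicates came from separate cultures or horses is not said. The p-values therefore cover only the spread among these arrays, which may be technical.

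IL-1β binds its receptor on chondrocytes and signals through NF-κB and MAP kinases, which switch on cytokines, chemokines and matrix-degrading enzymes while matrix genes such as COL2A1 are turned down. Part of the response is brief: immediate early transcription factors and the phosphatases and inhibitors that restrain MAP kinases are induced quickly and decline. Cell division genes report how many cells are cycling, which in cartilage is normally few.

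Values are log2 expression, on which a difference of 1 is a 2-fold difference, and fold changes are 48 h minus 2 h. Array medians over all arrays lay between 4.35 and 4.59, and a value under 4.35 is not shown to be above background. Arrays of 1 group among the IL-1β pellets correlated at 0.967 to 0.981 across probe sets and arrays of different times at 0.961 to 0.980. The mean of 16 chondrocyte markers lay between 7.22 and 7.83 on the 8 arrays. Of 19 leukocyte markers 17 had means under 4.35 at each time, and their mean lay between 3.11 and 3.40. Replicate 1 at 2 h stood apart in the immediate early genes, and replicate 3 at 48 h in the cell division genes, as given beside those results.

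Few single genes separated the times. With limma and Benjamini-Hochberg adjustment at 0.05, 2 of 30559 probe sets passed (0.00654%), and both fell: DUSP5, a nuclear phosphatase that inactivates the MAP kinase ERK, and SLC20A1, a sodium-phosphate cotransporter. This fit did not use the replicate numbers, and with them as a fixed block 21 passed (2 higher, 19 lower). At an unadjusted p under 0.05 there were 2134 probe sets, 1154 higher at 48 h (3.78%) and 980 lower (3.21%). The 4 arrays at 48 h all lay above those at 2 h in 714 probe sets (2.34%) and all below in 589 (1.93%). The median fold change was 0.015, and the median half-width of the 95% interval was 0.386 with 4 arrays per time. That interval is not adjusted for the number of probe sets, so a call generally needed a larger difference. LIF, for example, differed by -2.02 and was not called (limma adjusted p = 0.287).

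DUSP5 read 9.25, 6.77, 6.58 and 6.49 at 2 h and 4.62, 4.79, 4.38 and 5.03 at 48 h. The times did not overlap, replicate 1 at 2 h lay far above the other 2 h arrays, and the 48 h arrays were close to the lower limit of 4.35. DUSP5 fell by 2.57 (SE 0.40, limma adjusted p = 0.00734). SLC20A1 read 9.12, 8.43, 8.74 and 8.23 at 2 h against 7.69, 7.66, 7.64 and 7.49 at 48 h, also without overlap, and fell by 1.01 (SE 0.18, limma adjusted p = 0.0349). Without replicate 1 at 2 h the DUSP5 time change was -1.91 (adjusted p = 0.0316). The DUSP5 call was lost without replicate 1 (adjusted p = 0.053) or replicate 3 (0.0815) at 48 h. The SLC20A1 time change kept its call in only 1 of 8 fits that left out an array, that without replicate 4 at 2 h, with adjusted p up to 0.342. With the spread estimated from the 8 IL-1β arrays alone neither passed (adjusted p = 0.371 and 0.337), nor did they against a minimum of 1.5-fold (0.298 and 1).

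Fold changes were also negative in pellets without IL-1β. In controls the fold change was -1.86 for DUSP5 (limma adjusted p = 0.144) and -0.86 for SLC20A1 (0.143), and neither passed. In serum pellets both fell, by 3.38 (limma adjusted p = 3.54e-12) and 1.26 (2.16e-10). The difference between the IL-1β and control changes was -0.70 ± 0.57 (SE) for DUSP5 and -0.15 ± 0.25 for SLC20A1, and neither passed (limma adjusted p = 0.999 for each).

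**Figure D1:**
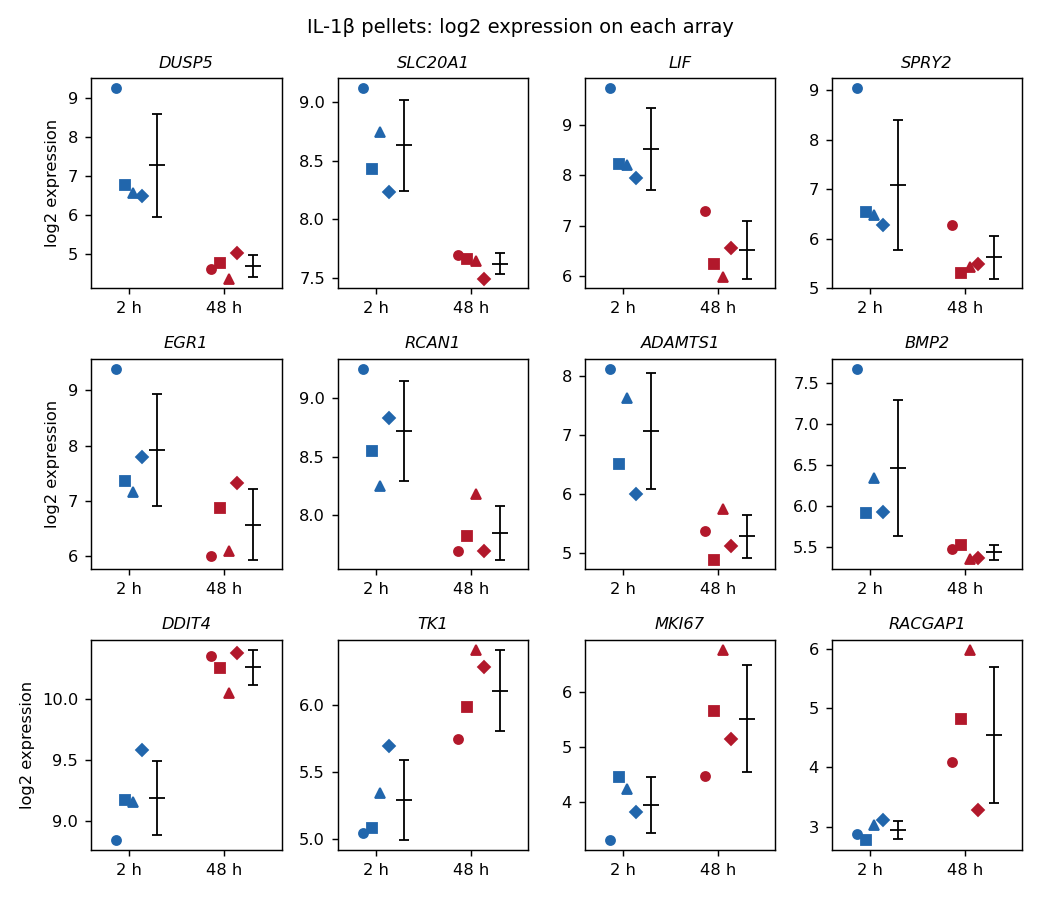
Log2 expression of 12 genes on each of the 8 IL-1β arrays, 2 h in blue and 48 h in red, with marker shapes for replicates 1 (circle), 2 (square), 3 (triangle) and 4 (diamond), and the mean ± SD beside them. DUSP5 and SLC20A1, the genes that passed the test, show no overlap between times, and the circle at 2 h lies far above the other arrays in DUSP5 and SPRY2.

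Immediate early and MAP kinase feedback genes lay lower at 48 h as a group. Of 32 measured, 29 had negative fold changes, with a median of -0.43 against 0.01 over all probe sets. DUSP5 was the only one called, and 14 were lower at an unadjusted p under 0.05, against a background of 3.21%. EGR1, a zinc-finger factor induced by mitogens, read 9.39, 7.37, 7.16 and 7.79 at 2 h and 6.0, 6.88, 6.10 and 7.32 at 48 h (-1.35, 95% interval -2.14 to -0.57, limma adjusted p = 0.383). Its times overlapped through 48 h replicate 4. EGR3, of the same family, had no overlap, at 5.10, 4.98, 4.42 and 4.53 against 3.93, 3.86, 3.86 and 4.02, but all 48 h values were under 4.35. KLF4, a Krüppel-like factor, differed by -0.90 (-1.43 to -0.37) while FOS, the AP-1 subunit, was not among the 14 (-0.57, -1.33 to 0.18).

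SPRY2, a Sprouty inhibitor of receptor tyrosine kinase signalling, read 9.05, 6.55, 6.48 and 6.27 at 2 h and 6.27, 5.31, 5.43 and 5.50 at 48 h, with the lowest 2 h and the highest 48 h array both at 6.27 (-1.46, -2.46 to -0.46). RCAN1, an inhibitor of calcineurin, read 9.25, 8.55, 8.25 and 8.83 against 7.70, 7.82, 8.18 and 7.70, without overlap (-0.87, -1.39 to -0.35).

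The summary of the whole list showed how much rested on 1 array. Its mean per array was 7.15, 6.13, 6.12 and 6.30 at 2 h and 5.79, 5.87, 5.76 and 5.92 at 48 h. All 2 h arrays lay above all 48 h arrays, but replicate 1 stood well above the other 2 h arrays, and without it the count of 14 became 5. On the control arrays the list mean was 6.28, 6.53, 6.03 and 6.40 at 2 h and 5.98, 6.06, 5.71 and 5.87 at 48 h. Apart from replicate 1, the 2 h IL-1β arrays lay within the range of the 2 h control arrays. In controls the median was -0.32 and 8 of 32 were lower at an unadjusted p under 0.05, against a background of 2.76%. Of the differences between IL-1β and control changes, 1 of 32 had an unadjusted p under 0.05, against a background of 5.39%.

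Cell division genes lay higher at 48 h in IL-1β pellets and lower at 48 h in controls. The mean of 50 mitosis and cytokinesis genes was 3.39, 3.65, 3.46 and 3.47 on the 2 h IL-1β arrays and 3.79, 4.66, 5.53 and 4.08 on the 48 h arrays. All 48 h arrays lay above all 2 h arrays, and they were spread much more widely, with replicate 3 highest. The means of 48 h replicates 1 and 4 were still under 4.35. In control pellets the mean was 7.21, 5.70, 6.50 and 6.25 at 2 h and 5.89, 5.16, 4.83 and 5.16 at 48 h. In a bulk sample, fewer cells of a kind and less RNA per cell cannot be told apart.

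**Figure D2:**
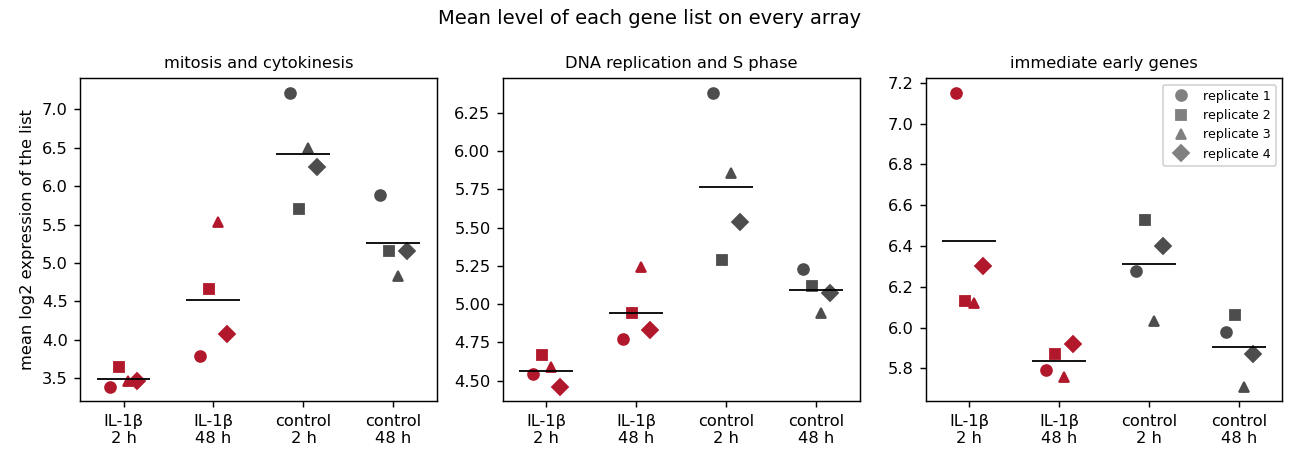
Mean log2 expression of 3 gene lists on each IL-1β array (red) and control array (grey) at 2 h and 48 h, with marker shapes for replicates and a line at each group's mean. The mitosis mean lies between 3.39 and 3.65 at 2 h and between 3.79 and 5.53 at 48 h under IL-1β, and the control arrays run the other way.

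Under IL-1β 47 of the 50 had positive fold changes, with a median of 1.03. None was called by limma. At an unadjusted p under 0.05, 34 were higher, against a background of 3.78%, and 0 lower, and 23 lay without overlap above their 2 h values, as did 2.34% of all probe sets. At 2 h 43 of the 50 had means under 4.35, so an exact fold cannot be read for these. At 48 h 21 of the 50 did, and where both means were under 4.35 the direction is not shown either. Without 48 h replicate 3 the count of 34 became 7. PRR11, which acts in late cell cycle progression, read 2.44, 2.41, 2.42 and 2.66 at 2 h and 3.81, 4.71, 5.92 and 3.45 at 48 h (limma adjusted p = 0.42). RACGAP1, a component of the centralspindlin complex of cytokinesis, read 2.88, 2.77, 3.03 and 3.11 against 4.10, 4.81, 5.99 and 3.29 (adjusted p = 0.321). Neither overlapped between times, but both were below the limit on all 2 h arrays and on their lower 48 h arrays.

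MKI67, the proliferation marker, read 3.31, 4.46, 4.25 and 3.82 at 2 h and 4.48, 5.67, 6.78 and 5.16 at 48 h (1.56, 95% interval 0.45 to 2.67, limma adjusted p = 0.506). TOP2A, a topoisomerase of dividing cells, read 2.98, 3.54, 3.06 and 2.91 against 3.62, 5.13, 6.11 and 3.97. CCNA2, a cyclin of S and G2 phase, read 4.98, 5.54, 5.32 and 4.93 against 6.16, 6.72, 7.63 and 5.91, above the limit throughout (1.41, 0.42 to 2.40). None of these overlapped between times, and in each the highest 48 h value was that of replicate 3. CCNB1, the mitotic cyclin, overlapped (1.21, 0.15 to 2.28). In controls 45 of the 50 were lower at an unadjusted p under 0.05, against a background of 2.76%, with a median of -1.20 and 0 positive, and 0 were higher, against a background of 2.47%. The count of 45 became 20 without control 2 h replicate 1 and 27 without control 48 h replicate 3.

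The IL-1β change minus the control change had an unadjusted p under 0.05 in 48 of the 50 (background 5.39%), with a median of 2.15, and 0 passed adjustment by limma. At 2 h under IL-1β 43 of the 50 had means under 4.35, where a fall can hardly be read. A control fall alone can then give a positive difference, so this count does not show a rise under IL-1β. MKI67 gave 2.94 ± 0.77 (SE, limma adjusted p = 0.231) and RACGAP1 2.79 ± 0.62 (adjusted p = 0.186). Both had 2 h IL-1β means under 4.35, so these sizes are not exact. Against serum pellets, 0 of the 50 differed at an unadjusted p under 0.05, where 2165 of all 30559 probe sets did. The median difference was -0.21. For MKI67 the change was 1.56 with IL-1β alone and 1.58 with serum.

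DNA replication and S phase genes ran in parallel at a smaller size. Of 37, 33 had positive fold changes, with a median of 0.36. None was called by limma, 12 were higher at an unadjusted p under 0.05 (background 3.78%) and 12 lay above without overlap, against 2.34% of all probe sets. Without 48 h replicate 3 the count of 12 became 5. The per-array mean was 4.54, 4.67, 4.59 and 4.46 at 2 h and 4.77, 4.94, 5.24 and 4.83 at 48 h. In controls 31 of 37 were lower at an unadjusted p under 0.05 (background 2.76%), with a median of -0.69, and 13 without control 2 h replicate 1.

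TK1, the salvage thymidine kinase whose level follows S phase, was the 1 gene whose time change differed between IL-1β and control pellets after adjustment. It read 5.04, 5.08, 5.34 and 5.69 at 2 h and 5.74, 5.98, 6.41 and 6.28 at 48 h under IL-1β, just without overlap, and the difference of 0.81 did not pass by itself (limma adjusted p = 0.155). The control mean was 6.86 ± 0.38 (SD, n = 4) at 2 h and 6.03 ± 0.34 at 48 h. The IL-1β change minus the control change was 1.64 ± 0.27 (SE, limma adjusted p = 0.0196). The call held in 7 of 16 fits that left out an array, with the highest adjusted p, 0.116, without control 2 h replicate 1. RRM2, a subunit of ribonucleotide reductase, read 5.53, 5.93, 4.98 and 5.41 against 6.78, 6.48, 7.42 and 6.40 (1.31, 95% interval 0.48 to 2.13). CCNE1, the G1/S cyclin, read 4.32, 4.56, 4.73 and 4.53 against 4.75, 5.16, 5.53 and 5.09 (0.60, 0.28 to 0.92). Both were without overlap. Among G1 regulators CCND1 (cyclin D1) differed by 0.59 (0.21 to 0.96), CCND2 by 0.64 (0.06 to 1.21), BTG2, an antiproliferative gene, by -0.71 (-1.14 to -0.28), and TP53INP1, a p53 target, by -0.67 (-1.20 to -0.13).

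**Figure D3:**
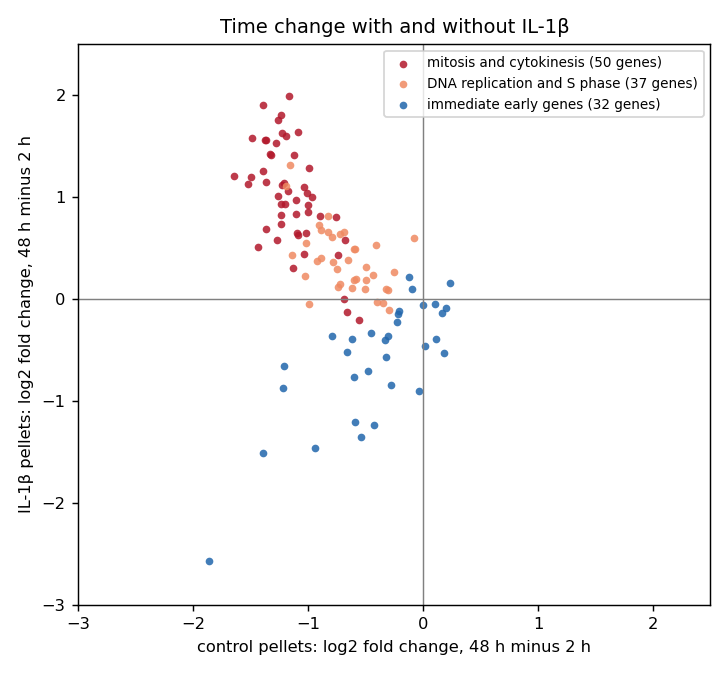
Log2 fold change from 2 h to 48 h in IL-1β pellets (vertical axis) against control pellets (horizontal axis) for the members of 3 lists, 1 point per gene. Mitosis genes lie in the upper left, with a median of 1.03 under IL-1β and -1.20 in controls, S phase genes lie nearer the origin, and immediate early genes lie mostly lower left.

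No gene of the inflammatory or matrix-degrading lists passed between the times. For MMP1, an interstitial collagenase, the arrays read 11.75, 10.81, 12.15 and 10.91 at 2 h and 11.12, 9.74, 11.64 and 11.29 at 48 h (-0.46, 95% interval -1.41 to 0.49). MMP13, the main collagenase acting on type II collagen, read 12.47, 11.72, 12.58 and 12.04 against 11.61, 11.79, 12.49 and 12.20 (-0.18, -1.23 to 0.87). MMP3, a stromelysin, read 12.68, 12.39, 12.42 and 11.80 against 11.86, 11.38, 11.77 and 11.65 (-0.66, -1.65 to 0.34). The times overlapped for all of these, and the intervals reach down to -1.65 for MMP3 and up to 0.87 for MMP13. At 48 h control pellets without IL-1β had a mean of 3.95 ± 0.40 (SD, n = 4) for MMP1, 7.16 ± 1.76 for MMP3 and 7.33 ± 1.32 for MMP13.

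Of 38 matrix-degrading enzymes 3 were lower at an unadjusted p under 0.05 (background 3.21%), 0 higher, and the median was -0.02. ADAMTS1, a secreted protease with aggrecanase activity, read 8.13, 6.52, 7.63 and 6.0 at 2 h and 5.38, 4.89, 5.75 and 5.12 at 48 h, without overlap (-1.79, -2.63 to -0.94, limma adjusted p = 0.155). ADAMTS5, the main aggrecanase in mouse cartilage, read 8.04, 8.08, 7.79 and 7.47 against 7.19, 6.23, 7.44 and 6.71, also without overlap (-0.95, -1.49 to -0.42, adjusted p = 0.347). MMP12, macrophage elastase, differed by -1.41 (-2.61 to -0.21), and ADAMTS4 by 0.11 (-0.72 to 0.94). In controls ADAMTS1 differed by -0.87 (limma adjusted p = 0.938) and ADAMTS5 by -0.67 (0.795). The IL-1β change minus the control change was -0.92 ± 0.59 (SE) for ADAMTS1 and -0.28 ± 0.37 for ADAMTS5. Neither difference passed (limma adjusted p = 0.984 and 0.999). Among protease inhibitors TIMP1 differed by -0.17 (-0.75 to 0.42) under IL-1β. Of 15 measured 0 had an unadjusted p under 0.05 (backgrounds 3.78% higher and 3.21% lower).

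Of 22 cytokines and chemokines measured 18 had negative fold changes, with a median of -0.19, where 8409 of all 16661 genes did. At an unadjusted p under 0.05, 2 were lower (background 3.21%). LIF, a cytokine of the IL-6 family, read 9.74, 8.23, 8.20 and 7.95 at 2 h against 7.29, 6.24, 5.97 and 6.55 at 48 h, without overlap (-2.02, -3.09 to -0.95, limma adjusted p = 0.287). In controls it differed by -2.32. IL1A read 5.41, 4.87, 7.41 and 4.73 against 3.63, 4.61, 3.45 and 4.52 (-1.56, -2.85 to -0.26). Its highest 2 h value was that of replicate 3, and its 48 h mean of 4.05 was under 4.35, so the size is not exact. IL6 read 7.95, 5.85, 6.68 and 6.23 against 5.98, 4.89, 7.38 and 5.77 (-0.67, -2.01 to 0.66). The neutrophil-attracting chemokines CXCL8 (-0.73, -2.17 to 0.71), CXCL1 (-0.91, -1.96 to 0.14) and CXCL6 (-0.17, -1.19 to 0.85) and CCL20 (-0.21, -0.90 to 0.49) had wide intervals that included 0.

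NOS2, the inducible nitric oxide synthase, differed by -0.14 (-1.27 to 0.98), PTGS2, which makes prostaglandin H2, by -0.16 (-1.62 to 1.29), and SAA1, an acute phase protein, by 0.11 (-0.43 to 0.65). SAA1 lay between 12.70 and 13.19 on all 8 arrays. Of 26 NF-κB subunits, targets and feedback genes 1 was lower at an unadjusted p under 0.05, against a background of 3.21%, and the median was -0.06. That gene was REL (-0.46, -0.88 to -0.04). IL1R2, the decoy receptor for IL-1, read 9.39, 9.99, 10.44 and 9.37 at 2 h and 8.31, 9.04, 9.80 and 8.39 at 48 h, overlapping (-0.91, -1.82 to -0.01), and in controls it differed by 1.41. The difference between these changes was -2.32 ± 0.63 (SE, limma adjusted p = 0.253). IL1RN, the receptor antagonist, lay under 4.35 on all 8 arrays.

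**Figure D4:**
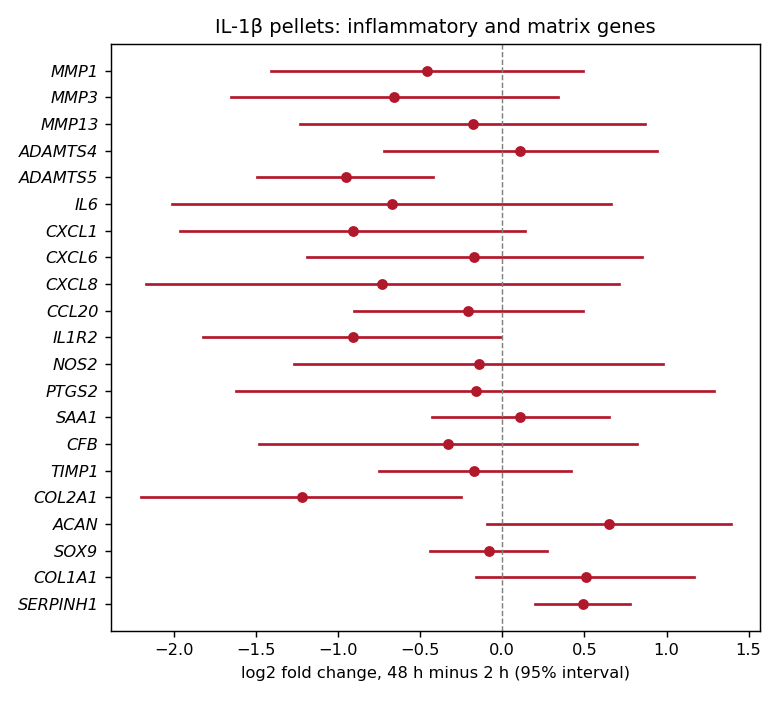
Log2 fold change from 2 h to 48 h in IL-1β pellets with its 95% interval (horizontal axis) for 21 inflammatory and matrix genes. Most intervals cross 0, those of ADAMTS5, COL2A1 and IL1R2 lie below 0 and that of SERPINH1 above it, and none of the 21 passed adjustment.

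Cartilage matrix genes were mixed. Of 34 measured 3 were lower at an unadjusted p under 0.05 (background 3.21%) and 0 higher, with a median of -0.05. COL2A1, the main cartilage collagen, read 10.60, 10.33, 10.49 and 9.73 at 2 h and 9.02, 9.35, 8.76 and 9.12 at 48 h, without overlap (-1.22, -2.20 to -0.25, limma adjusted p = 0.585). In controls it differed by 0.15, with means of 11.44 at 2 h and 11.60 at 48 h. CYTL1, a secreted chondrocyte protein, read 5.02, 5.49, 4.49 and 4.72 at 2 h and was under 4.35 on all 48 h arrays (adjusted p = 0.155). EPYC, a small leucine-rich proteoglycan, read 4.76, 5.09, 5.01 and 3.90 at 2 h and was also under 4.35 on all 48 h arrays. ACAN, the large aggregating proteoglycan, lay higher on average at 48 h with overlapping times, at 9.17, 9.29, 9.88 and 9.40 against 9.74, 10.55, 10.19 and 9.85 (0.65, -0.09 to 1.39). COL1A1, the collagen of fibrous tissue, differed by 0.51 (-0.16 to 1.17).

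SERPINH1, the collagen chaperone, read 9.77, 9.77, 9.57 and 9.89 at 2 h and 10.06, 10.36, 10.30 and 10.25 at 48 h, without overlap (0.49, 0.20 to 0.78, limma adjusted p = 0.383). It was the 1 gene of 25 collagen modifying and crosslinking enzymes with an unadjusted p under 0.05, against a background of 3.78% higher. Positive fold changes numbered 21 of the 25 under IL-1β, with a median of 0.16, and 9 of the 25 in controls. Of all 16661 genes 8251 were positive under IL-1β. CEMIP, which drives hyaluronan breakdown, read 8.51, 9.72, 8.48 and 9.47 against 7.60, 7.92, 8.02 and 7.97, without overlap (-1.17, -1.78 to -0.56, adjusted p = 0.274). CHPF, of chondroitin sulfate synthesis, differed by 0.53 (0.17 to 0.89).

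Of 15 chondrogenic regulators 5 were lower (background 3.21%) and 0 higher at an unadjusted p under 0.05, and 3 were lower without 2 h replicate 1 or 48 h replicate 4. NFATC1, a calcium-responsive transcription factor, read 9.54, 8.22, 8.47 and 8.52 at 2 h and 7.70, 7.81, 7.76 and 8.03 at 48 h, without overlap (-0.86, -1.27 to -0.44, limma adjusted p = 0.17). TRPS1, a GATA-type repressor, differed by -0.46 (-0.71 to -0.22) and SOX6, a partner of SOX9, by -0.34 (-0.65 to -0.04). SOX9 differed by -0.08 (-0.44 to 0.27). In TGF-beta and BMP signalling 7 of 36 were lower (background 3.21%) and 1 higher (background 3.78%) at an unadjusted p under 0.05, with a median of -0.15. Among ligands BMP2 read 7.68, 5.91, 6.34 and 5.93 against 5.48, 5.53, 5.35 and 5.37, without overlap (-1.04, -1.87 to -0.20), and INHBA, the activin A subunit, differed by -0.88 (-1.53 to -0.23). SMAD7, the inhibitory SMAD, differed by -0.80 (-1.48 to -0.11). Without 2 h replicate 1 the time change was -0.41 for SMAD7 and -0.63 for BMP2. TGFBR3, betaglycan, read 7.84, 7.94, 7.72 and 7.62 against 7.39, 7.19, 7.53 and 7.24, without overlap (-0.44, -0.83 to -0.05), and differed by 0.72 in controls. The count of 7 became 3 without 2 h replicate 1 or 48 h replicate 2 and 4 without 2 h replicate 2. In controls 5 of these 36 were lower (background 2.76%) and 1 higher (background 2.47%), with a median of -0.12. The IL-1β change minus the control change had a median of 0.04, with 3 of 36 at an unadjusted p under 0.05 (background 5.39%). Of the 15 chondrogenic regulators 2 were lower in controls (background 2.76%).

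DDIT4, an inhibitor of mTORC1 induced by stress, read 8.84, 9.17, 9.15 and 9.58 at 2 h and 10.35, 10.25, 10.05 and 10.37 at 48 h, without overlap (1.07, 0.56 to 1.57, limma adjusted p = 0.155). NR1D2, a nuclear receptor of the circadian clock, read 7.04, 7.38, 7.38 and 7.21 against 6.88, 5.93, 6.33 and 5.91, without overlap (-0.99, -1.46 to -0.52, adjusted p = 0.155). INSIG1, a brake on cholesterol synthesis, was 1 of 5 of 27 lipid synthesis genes lower at an unadjusted p under 0.05 (-0.60, -1.05 to -0.15), against a background of 3.21%. That count became 1 without 2 h replicate 2 or 48 h replicate 1, and 3 without 2 h replicate 1 or 4 or 48 h replicate 4. In the interferon response list 1 of 29 was higher at an unadjusted p under 0.05, and in that for hypoxia and glycolysis 1 of 34. The background was 3.78%, and 0 were lower in either list (background 3.21%). Of 12 reference genes 0 had an unadjusted p under 0.05.

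Serum pellets differed from IL-1β pellets in the time change of 15 probe sets by limma (0.0491% of 30559), 10 with a lower change under IL-1β alone and 5 with a higher one. With arrays centred on their medians 5 passed, 4 lower and 1 higher. ADAMTS5 differed by -0.95 between the times under IL-1β alone and rose by 1.46 under serum (limma adjusted p = 3.32e-08), a difference of -2.42 ± 0.30 (SE, limma adjusted p = 8.07e-05) that passed in all 41 alternative fits. RGS16, which shortens G protein signalling, read 6.91, 5.70, 6.50 and 6.26 at 2 h and 6.10, 5.83, 5.27 and 6.10 at 48 h, overlapping, against -2.80 under serum. The difference was 2.29 ± 0.33 (adjusted p = 0.000893) and passed in 40 of 41 fits. ATP6V0D2, a subunit of the vacuolar proton pump, read 6.42, 5.28, 4.41 and 5.02 at 2 h and was under 4.35 on all 48 h arrays, against 0.48 under serum (difference -1.94, adjusted p = 0.0399). That difference passed in 16 of 41 fits, and its size rests on values not shown to be above background.

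For most of the others IL-1β pellets were near 0 and the serum change was the larger. ANGPT4, an angiopoietin, differed by -0.08 under IL-1β and 1.39 under serum (adjusted p of the difference by limma = 0.0159). GPAM, an acyltransferase of triglyceride synthesis, differed by -0.13 and 1.14 (0.0259), ANTXR1 by -0.19 and 1.09 (0.0399), and SESN1, a p53-responsive stress gene, by -0.02 and 1.06 (0.0399). On the other side COLGALT2, a collagen galactosyltransferase, differed by 0.24 and -1.60 (0.0399), XYLT1, which starts glycosaminoglycan chains, by 0.02 and -0.81 (0.0399), SSX2IP by 0.32 and -0.58 (0.0399), and RNF19B by 0.15 and -0.62 (0.0259). These differences passed in 18 (ANTXR1) to 37 (ANGPT4) of the 41 fits, COLGALT2 in 21 and XYLT1 in 20. The other 4 genes called (CMTM3, CAMKK2, RBMS2 and AHCYL1, outside the naming rule and named after their values were seen) had differences from -1.06 to -0.79. Leaving out any 1 of the 8 IL-1β arrays left 2 to 9 calls. Calls numbered 7 to 9 without AES24h 48 h replicate 2 or 3, ACS 48 h replicate 3 or 4, AES 2 h replicate 2, AES24h 2 h replicate 3 or ACS 2 h replicate 2, and 24 without AES 48 h replicate 2.

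**Figure D5:**
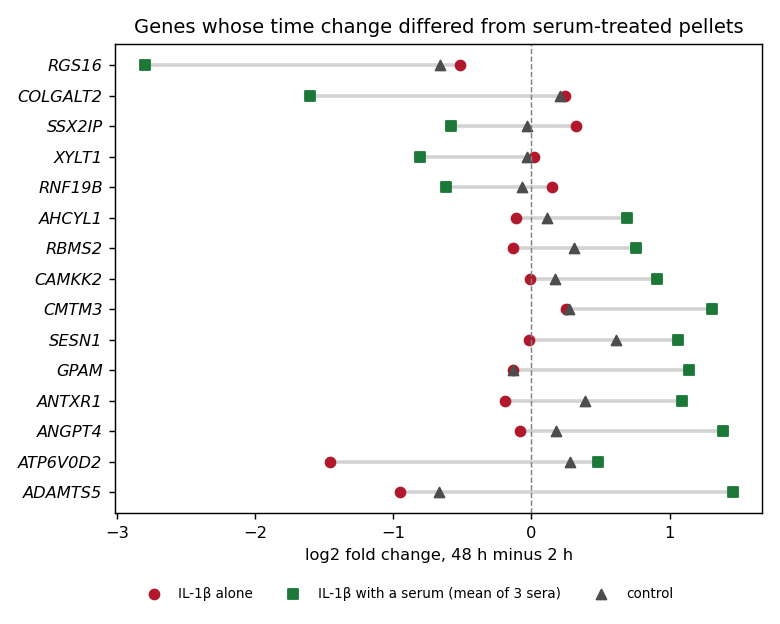
Log2 fold change from 2 h to 48 h (horizontal axis) for the 15 genes whose time change differed between IL-1β pellets (red circles) and serum pellets (green squares, mean over the 3 treatments), with control pellets (grey triangles) for reference. ADAMTS5 and ATP6V0D2 lie below 0 under IL-1β alone and above 0 under serum, and most other IL-1β points lie near 0.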

How the data were processed

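Total RNA of equine chondrocyte pellets was measured on Affymetrix whole-transcript arrays, from 100 ng of RNA each per the labels' protocols. The authors deposited 1 log2 value for each probe set on each array. The submitters' processing notes name RMA, Affymetrix Expression Console and limma without versions. RMA includes a step that equalises the arrays' distributions, which would reduce a change common to most transcripts. The array medians of the deposited values still differed, from 4.35 to 4.59. No sequencing depth applies; the number of arrays limits the precision.

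Gene symbols came from the platform annotation (16789 probe sets with 1 symbol, 343 with several, 13427 unlisted and unnamed). A gene with several probe sets (111 of 16661) took the probe set of highest mean over all arrays. limma 3.58.1 in R 4.3.3 fitted 10 group means to all 40 arrays (30 residual degrees of freedom, intensity trend), with two-sided tests and Benjamini-Hochberg adjustment over 30559 probe sets at 0.05. The scripts were tested on simulated data. The 4 comparisons were IL-1β 48 h against 2 h, control 48 h against 2 h, and the IL-1β change minus the control or mean serum change.

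Members and the 32 gene lists and 7 marker lists (960 genes, 863 measured) were chosen with earlier results of these data known. Lists are described by counts and medians, without a set test. Background shares are over all 30559 probe sets, while the lists hold 1 probe set per gene. Over the 16661 genes, 477 were higher and 581 lower under IL-1β at an unadjusted p under 0.05. In controls these counts were 437 and 590, and 1027 genes had such a p for the IL-1β change minus the control change. Genes named were those called without overlap, up to 6 members per list with the largest moderated statistic, up to 6 per direction called in a difference of changes, and 25 genes named in any case. Alternatives kept only the upper 60% of probe sets or used a replicate block (fixed or random), repeated quantile normalization, median centring, no intensity trend, array weights, only the compared groups, a minimum of 1.5-fold, or left out each array in turn.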

Additional observations from a re-analysis of the deposited data

Results flagged for a closer look

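Among 4 arrays of a group, an array was listed where its gap to the nearest other array, as a share of the group's range, exceeded Dixon's 95% critical value, which chance alone gives in about 1 in 20 groups. Of 228 tests 15 did so, 8 of them in replicate 1 at 2 h and 7 of those high. In that array DUSP5 read 9.25, LIF 9.74, SPRY2 9.05, FOS 7.51, SMAD7 8.60, UAP1 11.16 and FGF2 7.68, each above the other 2 h arrays, and PYCR1 read 6.38, below them. Also at 2 h, PRR11 read 2.66 in replicate 4, above the others but under 4.35. At 48 h replicate 1 was high for NOS2 (10.45) and UAP1 (9.47) and low for CHAD (9.33), INSIG1 (6.08) and ANGPT4 (4.76), and replicate 3 was low for COL9A2 (6.76).

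The time change under IL-1β differed from that of another treatment by limma's test of the difference in 12 named genes. TK1 differed from controls by 1.64. Against serum pellets the difference was -2.42 for ADAMTS5, -1.94 for ATP6V0D2, -1.47 for ANGPT4, -1.28 for ANTXR1, -1.27 for GPAM and -1.08 for SESN1, and 2.29 for RGS16, 1.84 for COLGALT2, 0.89 for SSX2IP, 0.83 for XYLT1 and 0.77 for RNF19B.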

How the results depend on the processing

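The 2 calls between times became 21 (2 higher, 19 lower) with the replicate number as a fixed block, among them LIF (adjusted p = 0.0252), CYTL1 (0.0224) and DDIT4 (0.0324), 14 with array weights (6 higher, 8 lower), 1 with repeated quantile normalization or median centring, 0 with only the compared groups or against 1.5-fold, and 0 to 2 on leaving out 1 array. The 1 control call became 9 with the fixed block, 10 with a random replicate block, 2 with repeated quantile normalization (1 higher, 1 lower), 53 with array weights, 0 with median centring, only the compared groups or 1.5-fold, and 0 to 18 on leaving out 1 array. The 1 call of the difference from control became 85 with array weights, 3 with only the compared groups, 0 against 1.5-fold, and 0 to 43 on leaving out 1 array. The 15 calls of the difference from serum became 77 with the fixed block, 36 with the random block, 5 with median centring (1 higher, 4 lower), 30 with array weights, 6 with only the compared groups, 1 against 1.5-fold, and 2 to 24 on leaving out 1 array. Against 1.5-fold, the unadjusted counts became 9 for mitosis genes under IL-1β and 9 in controls, 1 and 2 for S phase, 4 for immediate early genes and 0 for TGF-beta and BMP signalling, chondrogenic regulators and lipid synthesis. On leaving out 1 array they ran from 7 to 40 and 20 to 48, from 5 to 14 and 13 to 32, from 5 to 15, from 3 to 7, from 3 to 6 and from 1 to 5, and for the 48 mitosis genes differing from control from 45 to 49. Apart from the minimum fold and fewer samples, the cause of these moves was not tested. Deviations of arrays of the same replicate number at the 2 times correlated at 0.294, 0.113, 0.090 and 0.274. Those of different numbers and times correlated at -0.265 to 0.061, and all 8 arrays correlated best with their own number. The labels do not say that a number marks a pair, and the main fit did not take the numbers as pairs. Of the named gene results 8 changed sign under some setting, all with intervals including 0.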
